A study of Homo sapiens with 6 samples.

Results

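The 36 genes described here were high in kidney cancer cells given decitabine at 100 nM and lower again at 300 nM. They were chosen by their measured mean levels in all 3 groups. Among protein-coding genes the mean at 100 nM had to reach 1 CPM, which stands for reads per 1000000 reads assigned to genes. It also had to be at least 4 times the DMSO mean and at least 2 times the 300 nM mean. Genes with symbols starting COL, ZNF, PCDH, SAMD9, DDX60, IFI44, IFIT, GBP, KIF, HOX or SERPIN were left out, as was ELN. The rule gave 36 genes of the 19881 protein-coding genes in the count files, which list 58381 genes in all. Of 894 coding genes that met the first 2 conditions, 38 (4.25%) also met the third. The left-out symbols removed ELN and IFI44L from those 38. Most genes that rose as far did not fall back: of 816 others, 672 had a higher mean at 300 nM than at 100 nM.

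The cells were 786-0, a human line from a clear cell renal carcinoma, and every library is labelled as a knockout of SETD2, the enzyme that trimethylates histone H3 at lysine 36. Groups of 2 libraries each received vehicle (DMSO), 100 nM decitabine or 300 nM decitabine daily for 3 days, were given new medium on day 4 and were collected on day 5. No library with intact SETD2 was analysed here, the labels do not say whether the knockout is 1 clone, and they leave unsaid if a group's 2 libraries are separate cultures. P-values therefore rest on library-to-library spread that may be technical. Libraries held 89159112 to 96646427 assigned reads, so that a gene with 0 reads in a library may have stood at up to 0.0310 to 0.0336 CPM there (3 reads, counting error only). The SETD2 transcript was present at 80.2 and 82.3 CPM with DMSO, 41.0 and 50.9 at 100 nM, then 15.0 and 21.3 at 300 nM. With no intact cells beside them, these levels do not check the genotype label. Among markers of the line, PAX8 and VIM stood at 259.5 and 1857 CPM with DMSO, while CA9 had 0 reads in both DMSO libraries. The leukocyte markers PTPRC and CD3E had at most 10 reads in any library.

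Decitabine, a deoxycytidine analogue, enters DNA during replication and captures the methyltransferases there, and methylation is diluted as cells divide. In many carcinoma lines its use is followed by transcription of silenced repeats, whose double-stranded RNA is bound by the cytoplasmic RNA helicases MDA5 (IFIH1) and RIG-I (DDX58). Those sensors signal through MAVS to interferon regulatory factors and NF-kB, which in turn drive interferon-stimulated genes, chemokines and SOD2. The inflammasome is a separate sensing complex in which a receptor such as AIM2 recruits the adaptor ASC (PYCARD) and activates caspase-1.

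In every one of the 36 genes, both 100 nM libraries stood above all 4 other libraries, as they did in 10.9% of the 23160 genes tested. The rule leads to this pattern, so it is a description. Summed over the 36 genes, the level was 178.2 and 181.0 CPM with DMSO, 996.9 and 1396 at 100 nM, then 350.7 and 471.9 at 300 nM. The ratio of the 100 nM mean to the DMSO mean ran from 4.04 to 132.8, with a median of 7.69. Both 100 nM libraries were above both 300 nM libraries in 43.4% of tested genes. In the 36 the ratio of the 100 nM mean to the 300 nM mean had a narrower range, 2.00 to 4.21, with a median of 2.53. Most of the genes were weakly expressed: 27 stayed under 10 CPM at 100 nM and 8 exceeded 30 CPM. In these whole-culture samples, fewer cells that make a transcript and less transcript per cell cannot be told apart.

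**Figure D1:**
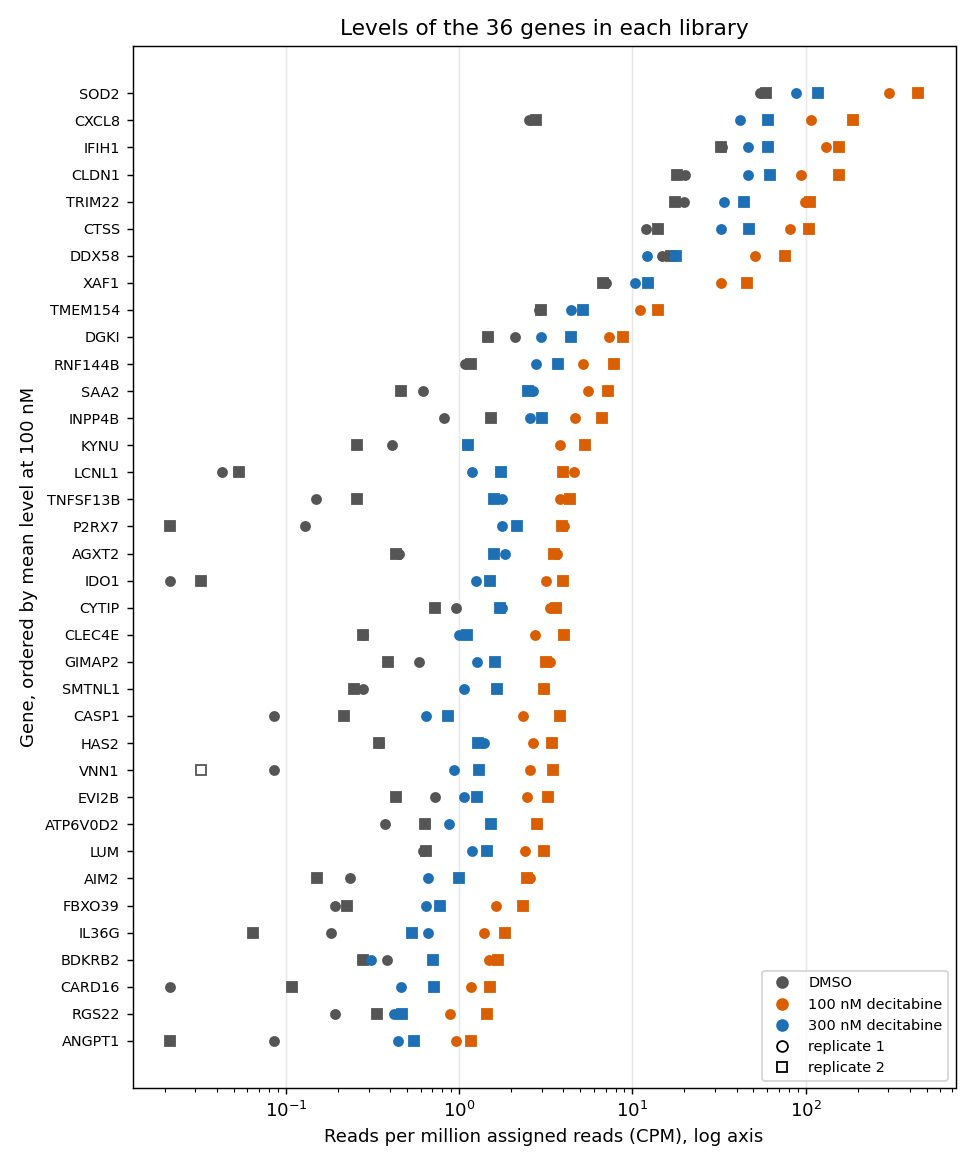
Level of each of the 36 genes in each of the 6 libraries, in CPM on a log axis (circles, replicate 1; squares, replicate 2; open square, a library with 0 reads, drawn at the level of 3 reads). The orange 100 nM points lie to the right of all others in every row, and only for DDX58 and BDKRB2 do the blue 300 nM points overlap the grey DMSO points.

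The rule does not set how 300 nM stands against DMSO, although both means enter it through their ratios to 100 nM. Both 300 nM libraries were above both DMSO libraries in 34 of the 36 genes, against 40.2% of all tested genes. In edgeR's quasi-likelihood test, 33 of 36 passed an adjusted p of 0.05 as higher at 300 nM than with DMSO, against 34.8% of tested genes that were higher. The rule favours genes with low DMSO values, which this contrast uses again. No share is given for the other genes that rose at 100 nM. Counts of members in this contrast, here and below, are therefore descriptions. Log2 fold changes here come from the edgeR fit with TMM scaling, whereas the CPM values rest on total reads. The median log2 fold change of the 36 genes was 1.78, and that of all tested genes was 0.05. None of the 36 was called lower, against 31.1% of tested genes, and the lowest fitted value was 0.04. DESeq2's Wald test and limma on the deposited log2 matrix likewise called 33 higher and 0 lower. The 300 nM excess over DMSO was a median of 32.8% of the 100 nM excess and ran from -1.33% in DDX58 to 48.2% in P2RX7. The rule's 300 nM condition holds this share below 50% in every member, so it is a description. It was under 10% in a single gene and over 40% in 4. DDX58, BDKRB2 and RGS22 were the 3 genes that did not pass the test.

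**Figure D2:**
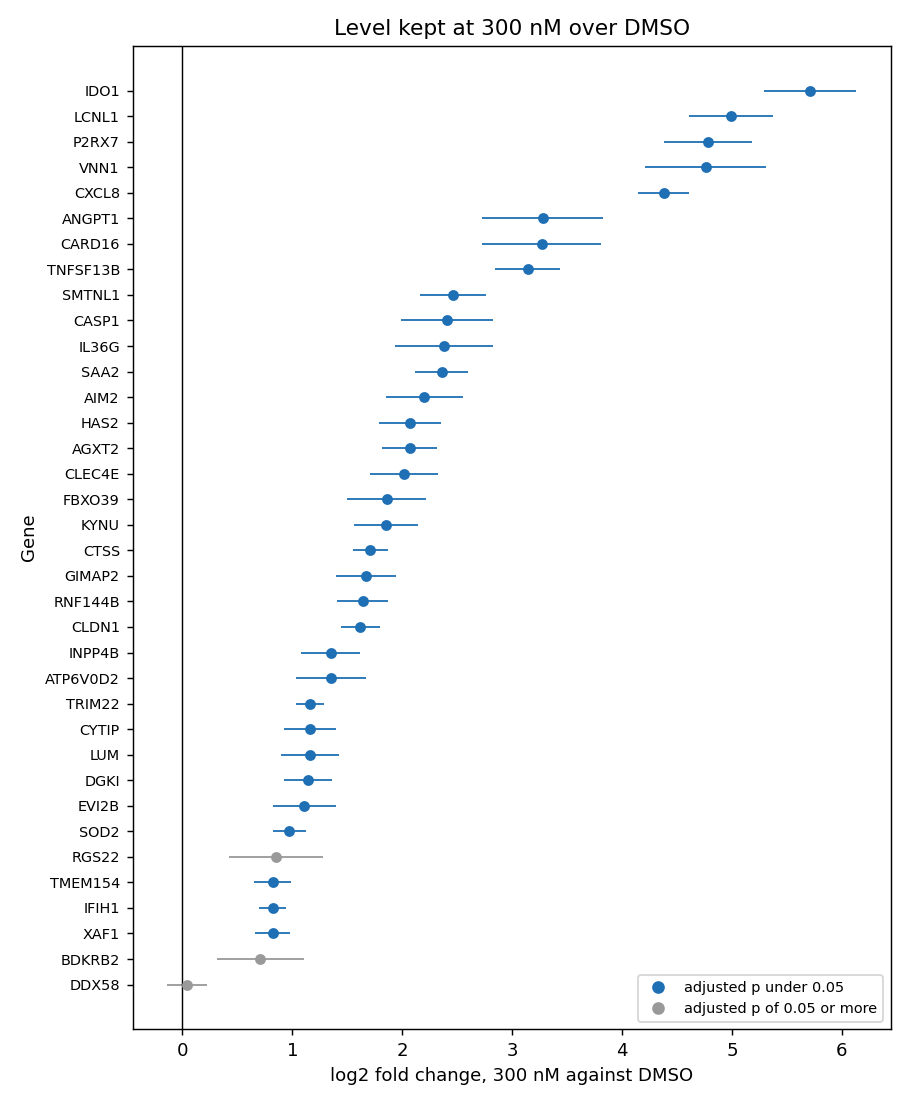
Log2 fold change at 300 nM against DMSO for each gene from the edgeR fit over all 6 libraries, with bars of 1 standard error. IDO1 stands highest at 5.71 and DDX58 lowest at 0.04, and the 3 grey genes did not reach an adjusted p under 0.05.

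RNA sensors and interferon-induced effectors gave 4 of the 8 genes above 30 CPM. IFIH1 (ENSG00000115267.5, GRCh38 chr2:162267079-162318703), which encodes MDA5, had 32.9 and 32.4 CPM with DMSO, 131.6 and 156.0 at 100 nM, then 46.4 and 60.8 at 300 nM. DDX58 (ENSG00000107201.9, chr9:32455705-32526324), which encodes RIG-I, had 14.8 and 16.6 CPM with DMSO, 51.2 and 75.7 at 100 nM, then 12.2 and 18.0 at 300 nM. The 300 nM libraries of DDX58 lay on either side of its DMSO libraries, whereas those of IFIH1 lay above. At 300 nM against DMSO, IFIH1 was higher (log2 fold change 0.82, SE 0.12, adjusted p = 1.7e-05, edgeR), while the log2 value of DDX58 was 0.04 (SE 0.18, adjusted p = 0.84). TRIM22, a tripartite-motif protein that restricts viral transcription, went from 19.9 and 17.6 CPM with DMSO to 98.9 and 106.8 at 100 nM, then 33.9 and 44.3 at 300 nM. XAF1, an antagonist of the apoptosis inhibitor XIAP, had 7.08 and 6.81, then 32.3 and 45.7, then 10.4 and 12.3 CPM. Both stayed above DMSO at 300 nM in the edgeR test (log2 fold changes of 1.16 for TRIM22 and 0.82 for XAF1, adjusted p = 3.3e-07 and 2.3e-04).

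Genes of the inflammasome gave 4 further members, all with means under 4 CPM at 100 nM. AIM2, a receptor for cytoplasmic double-stranded DNA, rose from 0.236 and 0.151 CPM with DMSO to 2.58 and 2.48 at 100 nM and stood at 0.663 and 0.993 at 300 nM. CASP1, the protease that matures interleukin-1 beta and interleukin-18, had 0.0857 and 0.216 CPM with DMSO, 2.33 and 3.83 at 100 nM, then 0.641 and 0.859 at 300 nM. For both genes the 3 groups did not overlap. Both 300 nM libraries lay above both DMSO libraries in 34 of the 36 genes and 40.2% of tested genes. The rule leads to the separation of 100 nM from the rest. The neighbour of CASP1, CARD16, which encodes a caspase-1-like protein without a protease domain and lies 6076 bases away on chromosome 11, reached 1.18 and 1.5 CPM at 100 nM from 2 and 10 reads with DMSO. P2RX7, the ATP-gated channel whose opening triggers the NLRP3 inflammasome, had 4.04 and 3.90 CPM at 100 nM and 1.76 and 2.15 at 300 nM, from 12 and 2 reads with DMSO. All 4 were higher at 300 nM than with DMSO in the edgeR test (log2 fold changes of 2.20 to 4.78). Other parts of the pathway, looked up after the members were known, went both ways between the doses. PYCARD, the adaptor, had 5.68 and 5.31 CPM at 100 nM and 8.42 and 6.24 at 300 nM. NLRP3 had 2.29 and 1.77 CPM at 100 nM and 3.25 and 4.58 at 300 nM. The cytokine substrates IL1B and IL18 had means of 4.66 and 11.1 CPM at 100 nM and of 4.94 and 13.2 at 300 nM. IFI16, a DNA sensor related to AIM2, missed the 4-fold condition but had the same shape, with means of 46.8, 126.2 and 42.1 CPM. CASP4, a caspase that binds lipopolysaccharide, had means of 21.7, 65.0 and 35.8 CPM.

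Secreted signals were led by CXCL8 (ENSG00000169429.10, chr4:73740506-73743716), the neutrophil chemokine interleukin-8. It had 2.53 and 2.79 CPM with DMSO, 108.2 and 187.1 at 100 nM, then 42.0 and 61.0 at 300 nM, and so stayed above DMSO at the larger dose (log2 fold change 4.38, SE 0.23, adjusted p = 3.4e-11, edgeR). Per kilobase of merged exon, CXCL8 was the most abundant of the 36 at 100 nM, at 64.9 CPM per kb against 22.7 for SOD2. TNFSF13B, the B-cell activating factor BAFF, rose from 0.150 and 0.259 CPM to 3.83 and 4.39 at 100 nM and had 1.77 and 1.59 at 300 nM. IL36G, an interleukin-1 family cytokine of epithelia, had 0.182 and 0.0647, then 1.39 and 1.85, then 0.663 and 0.538 CPM. SAA2, an acute-phase serum amyloid, went from 0.621 and 0.463 to 5.51 and 7.19 and then 2.69 and 2.48 CPM. Its near-identical neighbour SAA1 did not fall, with 89.8 and 87.4 CPM at 100 nM and 99.8 and 93.3 at 300 nM, so how reads were divided between the pair makes the SAA2 levels uncertain. ANGPT1, a ligand of the endothelial receptor TIE2, was the lowest of the 36 at 100 nM, with 0.966 and 1.17 CPM against 0.442 and 0.548 at 300 nM. All 5 genes were higher at 300 nM than with DMSO in the edgeR test, with log2 fold changes of 2.36 to 4.38.

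Metabolic enzymes included the most abundant member. SOD2 (ENSG00000112096.17, chr6:159669057-159745186), the mitochondrial superoxide dismutase, had 54.5 and 58.8 CPM with DMSO, 303.8 and 446.5 at 100 nM, then 87.7 and 118.5 at 300 nM. It was above DMSO at 300 nM (log2 fold change 0.97, SE 0.15, adjusted p = 2.4e-05, edgeR). Those groups did not overlap, with both 300 nM libraries the higher, as in 34 of the 36 genes and 40.2% of tested genes. IDO1 and KYNU act in the kynurenine pathway of tryptophan breakdown, IDO1 at its first step. IDO1 had 2 and 3 reads with DMSO, 3.17 and 3.97 CPM at 100 nM, then 1.25 and 1.5 at 300 nM. KYNU, kynureninase, went from 0.407 and 0.259 CPM with DMSO to 3.82 and 5.30 at 100 nM, then 1.10 and 1.13 at 300 nM. Of the other enzymes of the pathway, also looked up after the members were known, KMO had means of 2.84 CPM with DMSO, 0.740 at 100 nM and 0.159 at 300 nM, and so went down where IDO1 and KYNU went up. KYAT3 and TDO2 also had their lowest means at 300 nM, while AFMID and KYAT1 had their highest there. VNN1, a pantetheinase, had 8 and 0 reads with DMSO, 2.55 and 3.50 CPM at 100 nM, then 0.928 and 1.30 at 300 nM. AGXT2, a mitochondrial aminotransferase of the kidney, had 0.450 and 0.431, then 3.70 and 3.54, then 1.84 and 1.59 CPM. These 5 enzymes were all higher at 300 nM than with DMSO in the edgeR test (log2 fold changes of 0.97 to 5.71).

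Immune-cell and lysosomal genes gave 6 members. CTSS (ENSG00000163131.10, chr1:150730196-150765957), the lysosomal protease cathepsin S, which trims the invariant chain of class II antigen presentation, had 12.04 and 14.1 CPM with DMSO, 81.7 and 105.1 at 100 nM, then 32.6 and 47.3 at 300 nM. CLEC4E, the macrophage receptor Mincle, rose from 26 reads in each DMSO library to 2.73 and 4.04 CPM at 100 nM and had 0.995 and 1.12 at 300 nM. CYTIP, EVI2B, GIMAP2 and ATP6V0D2 (a vacuolar proton pump subunit) had means of 2.82 to 3.50 CPM at 100 nM and 1.16 to 1.74 at 300 nM. These 6 genes were higher at 300 nM than with DMSO in the edgeR test (log2 fold changes of 1.11 to 2.02). None of the 36 was on a list of 110 markers of immune cells. The summed level of that list was 426.2 and 417.4 CPM with DMSO, 832.9 and 812.5 at 100 nM, then 982.6 and 981.6 at 300 nM, and so did not fall between the doses, with PTPRC and CD3E near 0 throughout.

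Junction and matrix genes were CLDN1, HAS2 and LUM. CLDN1 (ENSG00000163347.5, chr3:190305701-190322475), the tight-junction protein claudin-1, had 20.01 and 18.1 CPM with DMSO, 94.4 and 157.0 at 100 nM, then 46.4 and 62.6 at 300 nM. HAS2, a hyaluronan synthase, had 0.343 and 0.345, then 2.69 and 3.42, then 1.39 and 1.29 CPM. LUM, the collagen-binding proteoglycan lumican, had 0.621 and 0.647, then 2.41 and 3.10, then 1.19 and 1.45 CPM. All 3 were higher at 300 nM than with DMSO in the edgeR test (log2 fold changes of 1.62, 2.07 and 1.16). LUM was the member on a list of 43 endothelial and fibroblast markers, of which 13 rose at least 4-fold at 100 nM. The other 42 summed to 588.0 and 588.3 CPM with DMSO, 916.8 and 933.8 at 100 nM, then 977.6 and 1029 at 300 nM, so the list as a whole did not fall between the doses.

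Signalling genes were DGKI (a diacylglycerol kinase), INPP4B (a phosphoinositide phosphatase), RNF144B (a ubiquitin ligase), BDKRB2 (the bradykinin B2 receptor) and RGS22. RNF144B had 1.08 and 1.16 CPM with DMSO, then 5.16 and 7.87, then 2.76 and 3.75, and its ratio of 2.00 just met the rule. BDKRB2 had 0.386 and 0.280 CPM with DMSO, 1.48 and 1.67 at 100 nM, then 0.310 and 0.704 at 300 nM, where 1 library lay within the DMSO range. Its log2 fold change at 300 nM against DMSO was 0.71 (SE 0.40, adjusted p = 0.13, edgeR), and without 300 nM replicate 1 it was 1.14 (adjusted p = 0.018). RGS22 had 0.193 and 0.334 CPM with DMSO and 0.420 and 0.466 at 300 nM (log2 fold change 0.85, SE 0.43, adjusted p = 0.092), and without DMSO replicate 2 the value was 1.31 (adjusted p = 0.035). DGKI and INPP4B had means of 8.07 and 5.68 CPM at 100 nM and 3.67 and 2.79 at 300 nM.

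The last 4 members fall in none of these groups. TMEM154, a membrane protein, had 2.88 and 2.97, then 11.03 and 14.1, then 4.44 and 5.16 CPM. LCNL1, a lipocalin-like gene, went from 4 and 5 reads with DMSO to 4.63 and 3.98 CPM at 100 nM, then 1.19 and 1.74 at 300 nM. SMTNL1, related to smoothelin of contractile cells, had 0.279 and 0.248, then 3.10 and 3.11, then 1.06 and 1.65 CPM. FBXO39, an F-box gene that begins 576 bases from the end of XAF1 on chromosome 17, had 0.193 and 0.226, then 1.63 and 2.33, then 0.641 and 0.776 CPM. All 4 were higher at 300 nM than with DMSO in the edgeR test (log2 fold changes of 0.82 to 4.99). LCNL1 overlaps another gene model on its own strand, as do SAA2 (a read-through with SAA4) and CARD16 (CARD17 and a CASP1 pseudogene). Several other members do so as well, among them SOD2, TRIM22, BDKRB2, ATP6V0D2 and P2RX7. The reads were counted without regard to strand, so reads of SOD2 and WTAP, or of HAS2 and its antisense gene, cannot be told apart where they overlap.

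Promoters were compared because decitabine leads to loss of methylation at CpG, which was not measured in these libraries. RefSeq (GRCh38.p14) gave the 250 bases before the start of 23 of the 36 genes. These held a median of 5 CpG, against 11 for 591 genes that rose as far at 100 nM without meeting the 300 nM condition and 17 for 15843 protein-coding genes. Their GC content was lower too, with medians of 51.2%, 62.4% and 62.4%, and a CpG count depends on GC content. Observed CpG over that expected from the C and G content had medians of 0.347, 0.525 and 0.737. The window held at most 5 CpG in 12 of 23 members (52.2%), 26.9% of the others that rose and 23.0% of coding genes. The range was wide: TNFSF13B had 0 CpG and SOD2 had 33. The windows of 19 of the 23 overlap an exon of some GENCODE v29 transcript, and the bases printed are the longest stretch of each window that overlaps no such exon. In the pair below, which shows the contrast, capitals mark CpG (TNFSF13B, chr13:108269379-108269628, plus strand; SOD2, chr6:159727385-159727499, minus strand).
TNFSF13B: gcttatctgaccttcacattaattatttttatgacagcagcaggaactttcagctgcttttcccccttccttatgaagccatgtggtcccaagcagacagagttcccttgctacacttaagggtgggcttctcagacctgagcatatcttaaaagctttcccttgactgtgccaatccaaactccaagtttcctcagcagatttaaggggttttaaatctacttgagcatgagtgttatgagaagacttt
SOD2: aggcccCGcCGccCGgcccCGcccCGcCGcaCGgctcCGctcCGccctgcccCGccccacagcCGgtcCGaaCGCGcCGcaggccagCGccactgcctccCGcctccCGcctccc

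Matches to 4 motifs were then counted on both strands of the same windows. AP-1 was searched as TGANTCA and the TATA box as TATAAA, and the interferon-stimulated response element and NF-kB each by its consensus. The response element was found in 2 of 23 members (8.70%), IFIH1 and AIM2, against 5.25% of the others that rose and 2.72% of coding genes. NF-kB matches stood before IFIH1 and DDX58 (8.70%, against 11.5% and 7.57%), AP-1 matches before CXCL8 and AIM2 (8.70%, against 7.11% and 5.04%), and TATA matches before CXCL8, RNF144B and KYNU (13.0%, against 9.65% and 9.23%). In IFIH1 a pair of response-element matches begin 159 and 153 bases before the start and overlap by 4 bases. Another begins 21 bases before the start. This match and the one that begins 159 bases before the start do not lie whole within the printed bases. A match is a string of letters and does not show binding, and a window without a match may hold a site whose letters differ from the consensus. The windows of IFIH1 (chr2:162318704-162318839, minus strand), AIM2 (chr1:159076902-159077016, minus), CXCL8 (chr4:73740319-73740505, plus) and RNF144B (chr6:18387100-18387349, plus) are shown because they hold such matches, with matches that lie whole within the printed bases in capitals.
IFIH1: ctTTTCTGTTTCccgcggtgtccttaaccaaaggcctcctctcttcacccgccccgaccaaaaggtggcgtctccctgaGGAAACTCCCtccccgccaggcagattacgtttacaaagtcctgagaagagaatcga
AIM2: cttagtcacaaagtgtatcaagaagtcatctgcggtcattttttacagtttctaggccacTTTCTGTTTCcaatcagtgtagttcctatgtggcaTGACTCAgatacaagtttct
CXCL8: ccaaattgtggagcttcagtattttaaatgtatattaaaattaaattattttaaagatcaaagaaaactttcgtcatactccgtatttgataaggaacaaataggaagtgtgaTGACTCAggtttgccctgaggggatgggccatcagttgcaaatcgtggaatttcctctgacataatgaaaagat
RNF144B: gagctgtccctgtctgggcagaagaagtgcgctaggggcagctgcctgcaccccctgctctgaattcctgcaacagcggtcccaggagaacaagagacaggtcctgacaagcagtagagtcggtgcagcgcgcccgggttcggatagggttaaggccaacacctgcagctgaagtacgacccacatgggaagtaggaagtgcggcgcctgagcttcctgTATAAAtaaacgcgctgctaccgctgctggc

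The lengths of the 36 genes were close to those of the other genes that rose, but their transcripts were AT-rich. Merged exons had a median length of 3825 bases, against 3778 in 816 coding genes that rose as far at 100 nM without meeting the 300 nM condition and 5091 in 12993 expressed coding genes. KYNU (17600 bases), SOD2, DGKI, INPP4B and TMEM154 were the 5 longest, and IL36G (1380 bases), SMTNL1, CARD16, AIM2 and EVI2B the 5 shortest. GC content of the longest coding transcript had a median of 41.5% in the 36 genes (quartiles 39.5% and 43.2%), 57.0% in the 816 and 49.2% in expressed coding genes. CXCL8 was lowest at 33.4% and LCNL1 highest at 66.9%. Coding sequence had a median GC of 45.9% in the 36, 59.4% in the 816 and 52.8% in expressed genes. For 3′ untranslated regions the medians were 36.4%, 50.9% and 42.9%. ATTTA, the core of the AU-rich elements through which many cytokine transcripts are degraded, occurred 2.78 times per kilobase of 3′ untranslated region in the median member, 0.518 times in the 816 and 1.63 times in expressed genes. CXCL8 carries 9 copies and KYNU 54. This count shares its base composition with the GC measure.

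Of 120 genes under 45% GC that rose at least 4-fold at 100 nM, 30 (25%) met the 300 nM condition, and of 774 with 45% GC or more, 8 (1.03%) did. The 36 genes include 29 of those 30. The other 7 were AGXT2, LCNL1, SAA2, SMTNL1, P2RX7, BDKRB2 and FBXO39. The same gradient ran through all coding genes at 1 CPM or more at 100 nM, whether or not they had risen. Of those under 40% GC, 59.0% had a 100 nM mean at least 2 times their 300 nM mean, with 26.1% from 40% to 45% GC and 0.599% at 60% GC or more. The median log2 ratio of the 300 nM to the 100 nM mean was -1.15 under 40% GC, -0.65 from 40% to 45% and 0.30 at 60% or more, beside -1.34 for the 36 genes, which the rule holds at -1 or below. Across 852 risen genes, Spearman's rho between GC and this ratio was 0.29, and within the 36 genes it was -0.07. Length had a gradient too: in the same coding genes the median log2 ratio was 0.25 under 2000 bases of merged exon and -0.62 at 10000 or more. Of risen genes, 1.84% and 10.5% in those classes met the 300 nM condition, with 3.47% to 5.88% in the classes between. For exon length, rho across the 852 genes was -0.1. These values are across genes of the same 6 libraries and are descriptions.

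**Figure D3:**
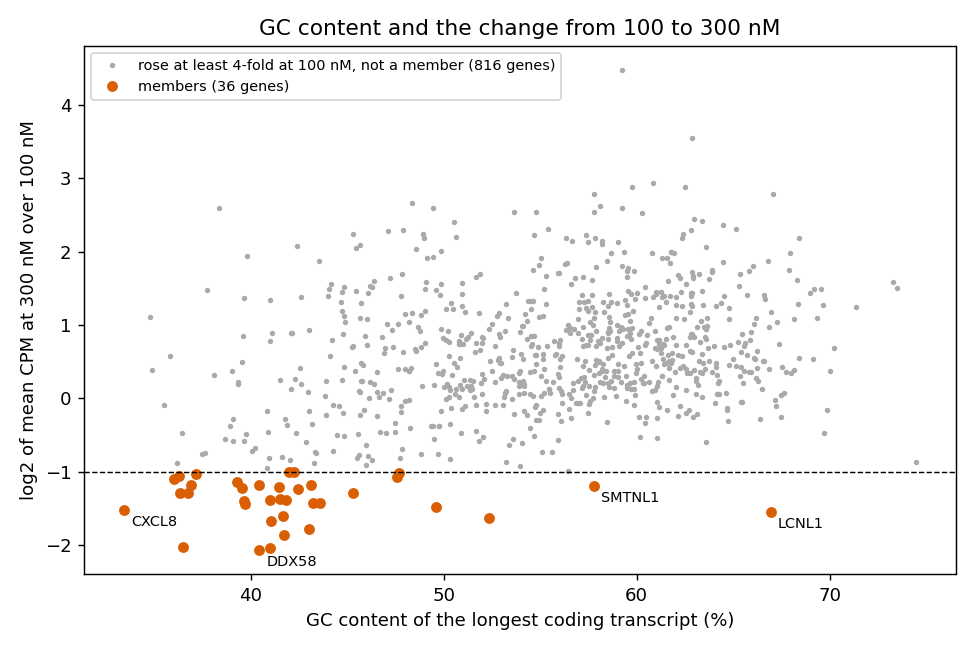
GC content of the longest coding transcript against the log2 ratio of the 300 nM to the 100 nM mean CPM, for 852 coding genes that rose at least 4-fold at 100 nM (orange, the 36 genes; grey, the other 816). The dashed line marks the 2-fold condition of the rule, and most orange points lie under 45% GC, with SMTNL1 and LCNL1 far to the right.

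**Figure D4:**
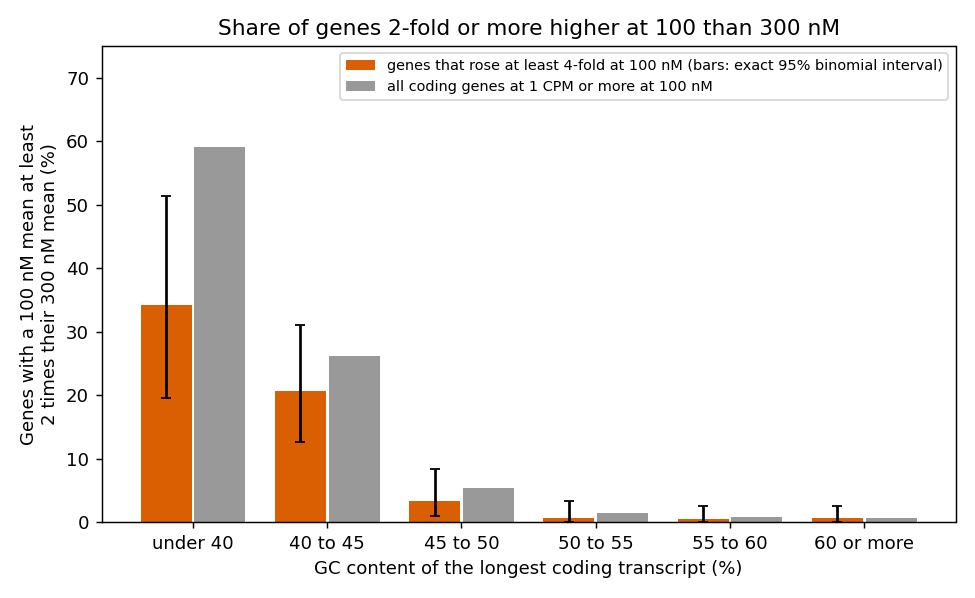
Share of genes whose 100 nM mean was at least 2 times the 300 nM mean, in 6 classes of GC content, for the 894 coding genes that rose at least 4-fold at 100 nM (orange, with exact 95% binomial intervals that cover counting of genes only) and for all 12414 coding genes at 1 CPM or more at 100 nM (grey). Both are highest at the left, at 34.2% and 59.0% under 40% GC, against 0.733% and 0.599% at 60% GC or more.

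Interferon-stimulated genes showed the same ordering. Of 67 such genes in the files, 34 rose at least 4-fold with 1 CPM at 100 nM, and 4 of those (DDX58, IFIH1, TRIM22 and XAF1) are members. In 32 of the 34, after symbols left out by the rule, Spearman's rho between GC and the ratio of 300 nM to 100 nM was 0.79. Of the 19 risen genes of the list at 50% GC or more, 16 had a higher mean at 300 nM than at 100 nM, and all 8 under 45% GC had a lower one. MX1 (52.4% GC) had means of 286.0 CPM at 100 nM and 406.2 at 300 nM, and ISG15 (63.4% GC) had 1186 and 1506. HELZ2 (67.2% GC) went the other way, with 867.3 and 852.7, as did OAS3 and IFITM1. RSAD2 (41.8% GC), the antiviral enzyme viperin, missed membership only by its 3.85-fold rise over DMSO and had means of 65.3, 251.1 and 107.5 CPM. Over the whole list, 63 of 66 tested genes were higher at 100 nM than with DMSO (edgeR), where 24.0% of all tested genes were higher. At 300 nM 55 were higher and 3 lower than with DMSO, where 34.8% and 31.1% of all tested genes were. Between the doses 26 were lower and 14 higher at 300 nM than at 100 nM, where 23.4% and 20.0% were. Of 77 genes for cytokines, chemokines and their receptors, 25 rose as far and 3 (CXCL8, IL36G and TNFSF13B) are members. Of 68 tested, 55 were higher and 2 lower at 100 nM, and 52 higher and 8 lower at 300 nM, than with DMSO, where 18.7% of all tested genes were lower at 100 nM and the other shares are as above. Between the doses 21 of the 68 were lower and 15 higher at 300 nM than at 100 nM, again beside 23.4% and 20.0% of all tested genes. None of 34 germ-cell genes that rose as far met the 300 nM condition, which 4.25% of all coding genes that rose met, and nothing is read from that count. The lists for G protein-coupled receptors (10 of 82 rose as far), ion channels (11 of 88) and matrix (21 of 99) held 1 member each, BDKRB2, P2RX7 and LUM. The remaining 8 lists held no member: adhesion receptors (13 of 91 rose as far), axon guidance (11 of 100), cytoskeleton (11 of 79), keratinocyte markers (3 of 29), receptor kinases and phosphatases (8 of 62), renal markers (2 of 29), transcription and chromatin regulators (17 of 198) and transporters (8 of 77).

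The replicates differed along the same axis, though in the 36 genes only with decitabine. At 100 nM, replicate 2 was above replicate 1 in 31 of the 36 genes, against 52.1% of tested genes, and at 300 nM in 30 of 36, against 61.3%. With DMSO it was above in 18 of 36, for which the share of all tested genes was not computed. Among expressed coding genes under 45% GC, replicate 2 was the higher in 78.5% with DMSO, 84.6% at 100 nM and 94.7% at 300 nM. Among those with 45% GC or more the shares were 38.3%, 36.6% and 45.8%. How much of the members' levels moves with this difference between libraries was not tested. Applied to replicate 1 libraries alone the rule gave 27 genes and to replicate 2 libraries alone 42, with 19 in both (70.4% and 45.2% of those lists). All 27 were lower at 300 nM than at 100 nM in replicate 2, and all 42 in replicate 1. Among all tested genes, 43.4% had both 100 nM libraries above both 300 nM libraries. The median log2 ratio of 300 nM to 100 nM was -1.15 in expressed coding genes under 40% GC and -0.65 from 40% to 45%. The counts of 27 and 42 are therefore descriptions.

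When each library's dependence on exon length and GC was fitted over expressed coding genes and taken out as an offset, the rise over DMSO at 100 nM stayed at least 4-fold in all 36 genes. The ratio of 100 nM to 300 nM shrank to a median of 1.72 (0.815 to 3.87). It stayed above 1 in 33 of 36 genes and at 2 or more in 13, namely AGXT2, AIM2, BDKRB2, CASP1, CLEC4E, DDX58, FBXO39, IFIH1, IL36G, LCNL1, SAA2, SMTNL1 and XAF1. SMTNL1 and LCNL1, the most GC-rich, moved further down (log2 fold changes at 300 nM against 100 nM of -1.66 and -1.84 in place of -1.08 and -1.43). CXCL8 moved from -1.40 to -0.31 and KYNU from -1.90 to -0.49. INPP4B, DGKI, ANGPT1 and LUM no longer had a negative value in the edgeR fit. Against DMSO, 35 of 36 were then higher at 300 nM, with DDX58 at 1.25 (adjusted p = 2.1e-07) and RGS22 at 2.39 (adjusted p = 1.2e-04). The share of all tested genes called higher in the fit with offsets was not computed, so nothing is read from that count. An offset of this kind takes out any change that follows GC or length, whatever its source.

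**Figure D5:**
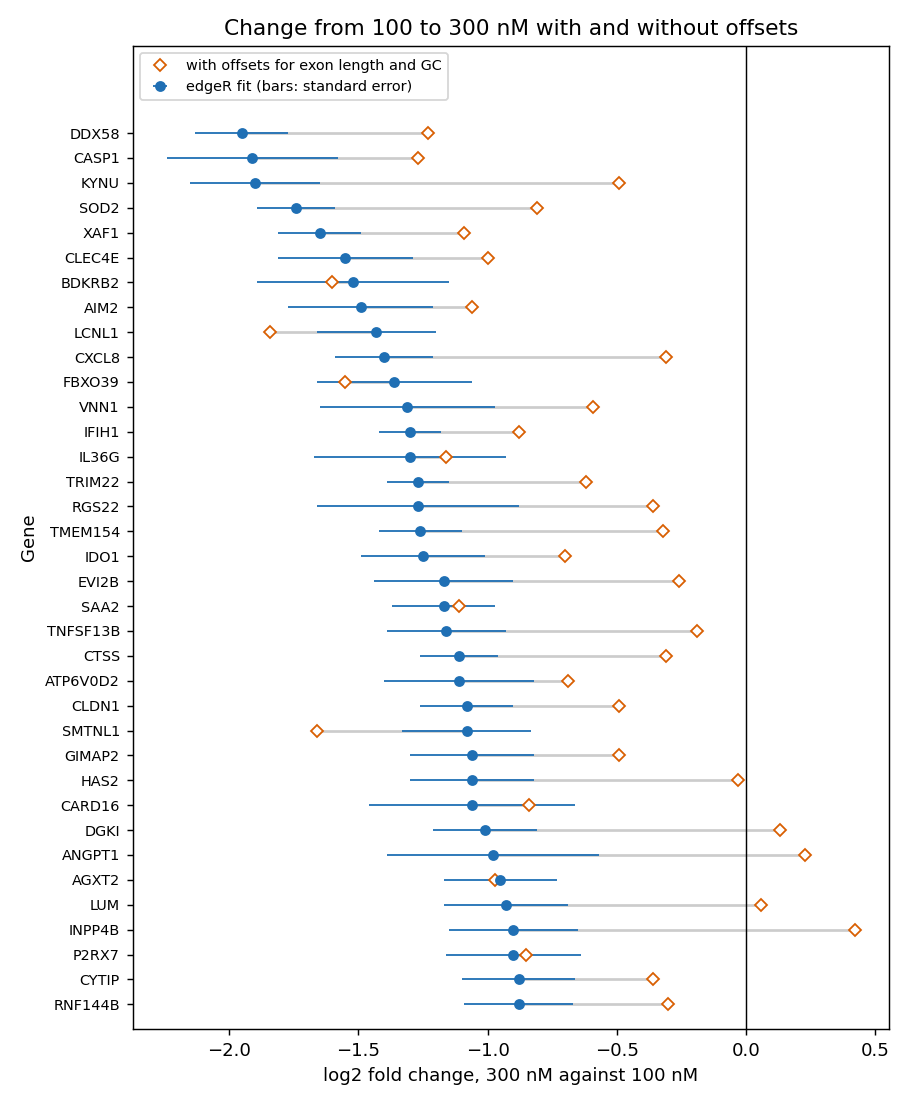
Log2 fold change at 300 nM against 100 nM for each gene in the edgeR fit (blue, bars of 1 standard error) and with offsets for exon length and GC (orange diamonds). The blue values are part of the rule and run from -1.95 to -0.88, while the diamonds spread from -1.84 for LCNL1 to 0.42 for INPP4B.

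The boundary of the set was crowded on the 300 nM side. RNF144B and CYTIP just met that condition with ratios of 2.00 and 2.01, and C3 (complement component 3, means of 42.8, 618.3 and 311.4 CPM) and ANXA10 just missed it with 1.99 and 1.94. On the DMSO side DDX58 and CYTIP just met the condition with 4.04 and 4.15. In 17 of the 36 genes the lower 100 nM library was at least 2 times the higher 300 nM library, and in 26 it was at least 4 times the higher DMSO library. Fewer than 10 reads were counted in at least 1 DMSO library for 8 genes (CASP1, LCNL1, P2RX7, IDO1, VNN1, IL36G, CARD16 and ANGPT1), so their ratios to DMSO are imprecise. In the contrasts that the rule used, edgeR called all 36 higher at 100 nM than with DMSO, where 24.0% of tested genes were higher, and 35 lower at 300 nM than at 100 nM, where 23.4% were lower. ANGPT1 was the exception, and nothing is read from these counts.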

How the data were processed

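Polyadenylated RNA of 6 libraries was analysed. The deposited counts are whole reads per gene, made by the authors with STAR and SAMtools, per the submitters' processing notes, and with featureCounts, whose version is 1.5.0-p3 per the file headers. Gene models were GENCODE v28, with no paired-end or strand option in the recorded command. The submitters' processing notes name hg19 and GRCh37, but the coordinates are GRCh38: all 56933 genes with the same versioned identifier in GENCODE v29 had the same start and end there. Names and types came from v29 for 58261 of 58381 genes. The deposited log2 matrix holds values scaled and variance-stabilised by the authors, by settings not given in the sources used here, and served only as an alternative.

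Library totals were 93342879 and 92793965 reads (DMSO), 95271726 and 89159112 (100 nM) and 90475363 and 96646427 (300 nM), and CPM was computed on these totals. Tests were edgeR 4.0.16 quasi-likelihood fits (R 4.3.3, TMM, filterByExpr, 23160 genes, 3 residual degrees of freedom, two-sided, Benjamini-Hochberg adjustment over all tested genes, threshold 0.05) over all 6 libraries, tested on simulated data. Alternatives were DESeq2 1.42.0, limma 3.58.1, other scalings, thresholds and filters, left-out libraries, a replicate block, and offsets for exon length and GC (natural splines, 5 degrees of freedom each, per library). Residuals of same-numbered libraries correlated by 0.008 to 0.075 over the tested genes, so replicate numbers were not taken as pairs. In every group, however, replicate 2 was the higher in most expressed coding genes under 45% GC. Whether same-numbered libraries share a source was not tested, and counts with a replicate block are given at the end.

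The members and the 16 gene lists were chosen with earlier results of these data known, and the grouping by function and the pathway partners after the members were seen. Genes were to be named by level, by ratio, by list membership and by length, a rule that names 27 of the 36, and the other 9 are named because each member is accounted for.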

Additional observations from a re-analysis of the deposited data

How the results depend on the processing

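The set's size depends on its thresholds. It was 13 genes at a minimum of 5 CPM, 18 at 8-fold over DMSO and 8 at 3-fold over 300 nM, all of them among the 36. TMM scaling left 28 and DESeq2 size factors 24. Leaving out 1 library in turn gave 25 to 46 genes, with 25 without 100 nM replicate 2 and 46 without 100 nM replicate 1 or without 300 nM replicate 2. With offsets for exon length and GC the rule gave 21 genes, of which 13 were shared, and 19 of the 36 were called lower at 300 nM than at 100 nM instead of 35. The share of all tested genes called lower with those offsets was not computed. Under those offsets the fitted change from 100 to 300 nM turned positive in INPP4B (0.42), LUM (0.06), DGKI (0.13) and ANGPT1 (0.23). DDX58 at 300 nM against DMSO ranged from -0.21 (without 300 nM replicate 2) to 0.26 (without 300 nM replicate 1) as libraries were left out, with -0.06 without DMSO replicate 1, and passed the test in none of these. With the replicate block, 36 genes were called higher at 100 nM and 33 at 300 nM than with DMSO and 35 lower at 300 nM than at 100 nM, as without it. With 2 libraries a group and under 10 reads in a DMSO library for 8 genes, ratios to DMSO are the least precise values here. The set's median exon length ran from 3083 to 5484 bases over the alternatives, and its median GC from 41.4% to 41.8%, except 47.6% with the offsets.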
